A study of Equus caballus with 4 samples.

Results

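The bone morphogenetic protein (BMP) genes examined here were the ligands *BMP2*, *BMP4* and *BMP6*, the receptors *BMPR1A* and *BMPR2*, the inhibitors of DNA binding *ID1*, *ID2* and *ID3*, and the inhibitory SMADs *SMAD6* and *SMAD7*. Every non-control probe whose gene name column held one of these 10 symbols was taken. This gave 27 probes of 8 genes, out of 15105 gene names on the array. *ID1* and *SMAD7* have no symbol in that column. Their 5 and 2 probes are named only by the description column, and they are reported apart from the counts of the 27 probes.

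BMP ligands are secreted dimers that bind pairs of type I and type II serine/threonine kinase receptors. The type I receptor phosphorylates SMAD1, SMAD5 and SMAD9, which enter the nucleus with SMAD4 and raise the transcription of target genes, among which the *ID* genes are the best known. ID proteins bind E proteins such as TCF3, TCF4 and TCF12 and keep them from pairing with MYOD1, and BMP signaling is known to hold satellite cells in proliferation before they differentiate. SMAD6 and SMAD7, themselves induced by the pathway, act back on it as inhibitors.

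The RNA came from equine satellite cells (ESC), which are resident stem cells of muscle that divide and then form myotubes. They had been isolated from the semitendinosus muscle of young stallions, and RNA was taken on day 3 of their differentiation. The HMB-treated group received 50 µM β-hydroxy-β-methylbutyrate (HMB), a leucine metabolite, after day 2 of differentiation for 24 h, with 3 mM H2O2 for the last 1 h. The control group received H2O2 alone, so both groups had been exposed to it. Each of 4 arrays carried cRNA of HMB-treated cells in Cy5 and cRNA of control cells in Cy3, and gave 1 ratio per spot. The dyes were not swapped, so treatment and dye cannot be told apart. All arrays lay on 1 slide. The control carries replicate number 1 in the label of each array. If it was 1 RNA, the spread between controls is not in the errors given here. One culture was selected by its viability and fusion scores, so n = 4 need not stand for 4 horses, and p-values then measure only the spread between these arrays.

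On the 4 arrays, well-above-background spots made up 57.6% to 60.6% of non-control spots in Cy3 and 55.2% to 61.8% in Cy5. The median log2 ratio of the tested probes lay between −0.08 and −0.06. A positive log2 ratio means a higher signal in the HMB-treated group. A probe was tested when at least 1 channel was well above background on all 4 arrays, and called when its p, adjusted by Benjamini-Hochberg over all 24670 tested probes, was at most 0.05 and its fold change (FC) at least 1.3. None of the probes of the 10 genes was marked as an outlier or saturated. With 4 arrays, the precision of each value is limited by their number.

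The probes of *BMP2* and *BMP4*, the pair of ligand genes with a measured signal, lie on matching stretches of these closely related genes, and they moved in opposite directions. One probe of each is shown, with the bases that the pair shares in capitals. *ID3* had the largest rise of the 10 genes and 1 probe, which ends on the stop codon, in capitals. On the EquCab1 build, all strands being those of the transcript, the *BMP2* probe lies at chr22:16619147-16619206 (minus), the *BMP4* probe at chr24:1954589-1954648 (minus) and the *ID3* probe at chr2:29734795-29734854 (plus).
BMP2 A_69_P002112: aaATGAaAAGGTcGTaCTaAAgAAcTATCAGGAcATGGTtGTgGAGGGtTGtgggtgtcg
BMP4 A_69_P002081: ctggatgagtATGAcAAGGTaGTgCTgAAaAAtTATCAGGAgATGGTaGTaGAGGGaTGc
ID3 A_69_P086986: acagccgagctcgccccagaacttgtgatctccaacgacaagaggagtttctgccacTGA
Over the 52 bases that align without a gap, 39 were identical between the *BMP2* and *BMP4* probes (75.0%), and the longest identical run was 8 bases.

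Of the 27 probes, 21 were tested and 10 were called, of which 7 had the higher signal and 3 the lower one in HMB-treated cells. With scaling to spike-in RNA, described below, 8 were called and all were lower, namely those of *BMP2*, *BMPR1A*, *BMPR2* and *SMAD6* that had been tested. That scaling called 18571 of all 24670 tested probes, 17324 of them lower. With the deposited ratios, 28.6% of all tested probes were called, 12.1% higher and 16.4% lower. With both channels required on every array, 20 of the 27 probes were tested and 9 were called, 7 higher and 2 lower. Of all 22653 probes tested that way, 5870 were called. *SMAD6*, which passed the main filter through its control channel alone, was not tested there. The probes are not independent, because those of *BMP4*, *ID2* and *BMP2* overlap on the same transcript. With each gene taken by its brightest tested probe, 3 of the 7 tested genes were called (*BMP2*, *ID3* and *SMAD6*), beside 27.6% of all 8811 tested gene names (10.5% higher and 17.1% lower). The median log2 ratio of the 7 genes was −0.04. With a gene's probes averaged first, *BMP4* was called as well and *ID2* was not.

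**Figure D1:**
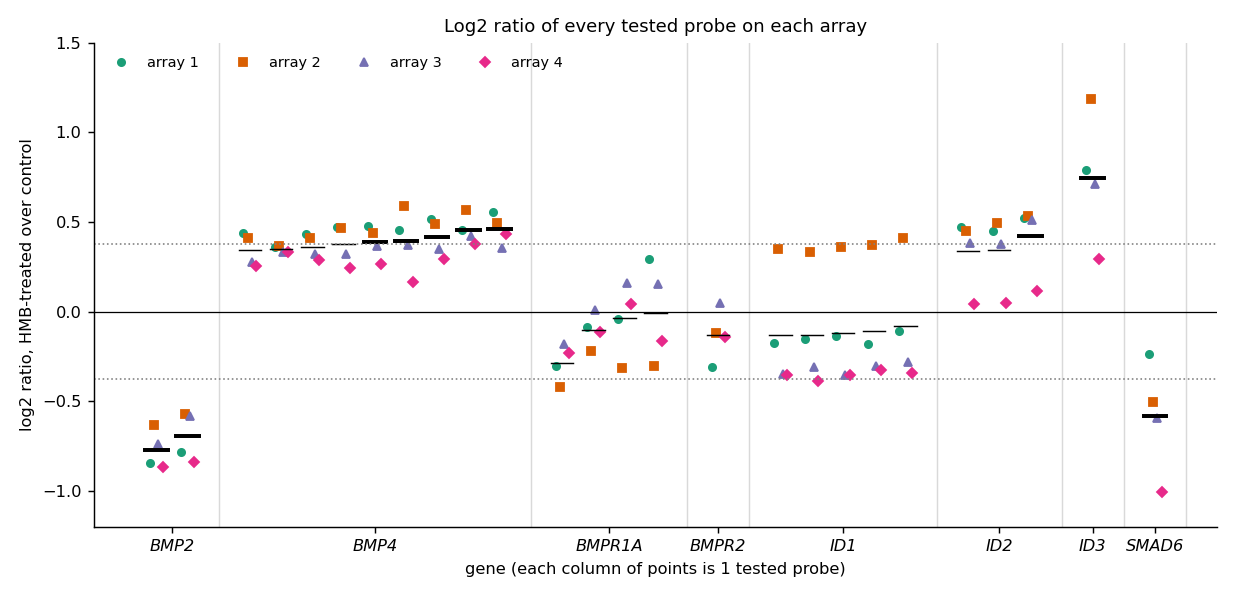
Log2 ratio of HMB-treated over control cells (y axis) for each tested probe of each gene (x axis, 1 column of points per probe), with 1 point per array, horizontal bars at the mean of the 4 arrays, thick bars for called probes, and dotted lines at an FC of 1.3. Both *BMP2* probes lie below 0 and all 9 *BMP4* probes above 0 on every array, while *ID1* is above 0 on array 2 alone; scaling to spike-in RNA, which is not plotted here, turns the means of *BMP4* and *ID2* below 0.

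*BMP2*, a ligand best known for inducing bone formation, fell in the HMB-treated group. Its brighter probe (A_69_P002111) had Cy3 control signals of 1755, 1419, 1926 and 1665 on arrays 1 to 4 and Cy5 signals of 1021, 955, 1289 and 930. The control signal was the higher one on each array, and the ranges of the channels did not overlap. The log2 ratios were −0.78, −0.57, −0.58 and −0.84, which gave a mean of −0.69 ± 0.14 (SD, n = 4, FC 1.62, adjusted p = 0.000742). The second probe, which overlaps the first by 30 bases, gave −0.85, −0.63, −0.74 and −0.87, a mean of −0.77 ± 0.11 (SD, n = 4, FC 1.71, adjusted p = 0.000346). On both probes arrays 1 and 4 were lowest. Both calls held under each alternative analysis, including a test against an FC of 1.3 (adjusted p = 0.0249 and 0.00690).

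Levels in these cultures are means over all cells, so fewer cells of a type and less RNA per cell cannot be told apart. In the same arrays, 8 of the 11 tested myogenic markers were called lower in the HMB-treated group and none higher, and the summed signal of the 12 markers on the array was 184719 to 208221 in Cy3 and 72456 to 114410 in Cy5. Of 7 tested fibroblast markers, 5 were called higher and none lower, with summed signals of 225295 to 263122 in Cy3 and 256318 to 393273 in Cy5. The largest share of these sums came from *COL3A1*, which was not called (0.06). The methods describe a step in which fibroblasts were left to adhere and removed. *PAX7*, a marker of satellite cells, was not well above background on any array. None of 5 endothelial and 4 adipocyte markers was above background in both channels of all arrays. Of the 6 leukocyte markers, 3 were tested, of which *CD68* and *PTPRC* were called higher and *CD14* was not called. *AIF1* and *CD3E* were not well above background on any array, and *CSF1R* was so only in Cy3 on 1 array. Of the smooth muscle and pericyte markers neither of the 2 tested was called. Among all tested gene names, 10.5% were called higher and 17.1% lower. All marker counts rest on the deposited ratios, which scaling to spike-in RNA lowers by 0.37 to 0.57 depending on the array. The part of these marker shifts in the results for the BMP genes was not tested.

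*BMP4*, a ligand of the same subgroup as *BMP2*, was higher on 4 of 4 arrays on each of its 9 probes, although the mean turned negative when the arrays were scaled to spike-in RNA (−0.14 to −0.03). The 9 probes lie within 64 bases and hold only 5 different sequences, so they count as 1 measurement. The probe shown above (A_69_P002081) had Cy3 signals of 217, 182, 266 and 204 and Cy5 signals of 297, 269, 357 and 265. Its log2 ratios were 0.45, 0.57, 0.42 and 0.38, with a mean of 0.45 ± 0.08 (SD, n = 4, FC 1.37, adjusted p = 0.00214). On each array the HMB-treated signal was the higher one, but the ranges of the channels across arrays overlapped.

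Over the 9 *BMP4* probes the mean log2 ratio ran from 0.34 to 0.46, with adjusted p between 0.00212 and 0.0103. The threshold that divided them was the fold change, as 5 lay above an FC of 1.3 (0.379 on the log2 scale) and 4 below it. All 5 calls were lost with the test against an FC of 1.3 (adjusted p of 0.602 or more) and with normexp correction and loess, where the 9 means ran from 0.27 to 0.33. Probes of identical sequence fell on both sides of the threshold. One such pair had log2 ratios of 0.376 and 0.461, of which only the second was called, and another had 0.386 and 0.363, of which only the first was called. The average over all 9 probes was 0.46, 0.47, 0.35 and 0.29 on arrays 1 to 4, with a mean of 0.39 ± 0.09 (SD, n = 4). The probes differed by less within an array (mean SD 0.06) than this average differed between arrays.

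The log2 ratio of *BMP4* exceeded that of *BMP2* by 1.28, 1.07, 1.00 and 1.15 on the 4 arrays, with each gene taken as the mean of its probes. The mean difference was 1.13 ± 0.12 (SD, n = 4). A scaling that shifts all probes of an array alike leaves this difference as it is. In an exact permutation test that flips the sign of each array, two-sided, p was 0.125 for this difference and for each of 3 others given below, which is the smallest value that 4 arrays allow, and adjustment over the 4 comparisons left it at 0.125.

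*BMP6*, a ligand known for its part in iron metabolism and cartilage, could not be measured. Its 5 probes lie within 64 bases on chromosome 20 and had signals of 3.58 to 7.09 in Cy3 and 5.35 to 10.9 in Cy5. Neither channel was well above background on any array, and the deposited ratio is listed at 0 throughout. No comparison between the groups can be drawn for this gene.

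**Figure D2:**
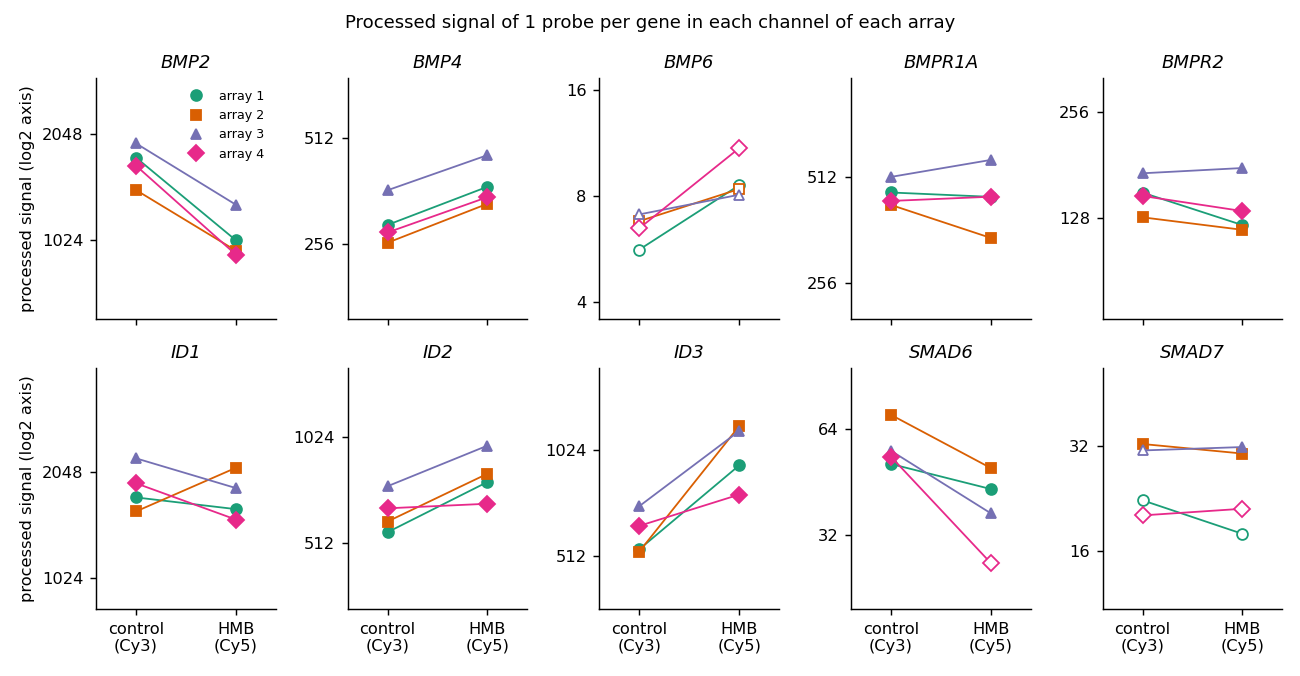
Processed signal (y axis, log2 scale, spanning the same fold range in every panel) in the control channel and the HMB-treated channel (x axis) of 1 probe per gene, joined by a line for each array, with open symbols where the channel was not well above background. The lines fall for *BMP2* and *SMAD6* and rise for *BMP4*, *ID2* and *ID3* on all 4 arrays, cross for *ID1*, and join open symbols for *BMP6* on every array; with scaling to spike-in RNA, which is not plotted here, the means of *BMP4* and *ID2* fall below 0.

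The receptors showed no called difference with the deposited ratios. Scaling to spike-in RNA called 17324 of all 24670 tested probes lower. With it all 4 tested *BMPR1A* probes (−0.77 to −0.49, adjusted p between 0.000238 and 0.0066) and the *BMPR2* probe (−0.62, adjusted p = 0.00128) were called lower. *BMPR1A*, which encodes the type I receptor ALK3, had 5 probes on chromosome 1, of which 4 were tested. The brightest one had log2 ratios of −0.04, −0.31, 0.16 and 0.04, with a mean of −0.04 ± 0.20 (SD, n = 4, adjusted p = 0.749). The arrays thus differed in sign.

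A second *BMPR1A* probe (A_69_P096601) was lower on 4 of 4 arrays, at −0.31, −0.42, −0.18 and −0.23. Its mean of −0.28 ± 0.10 (SD, n = 4) had an adjusted p of 0.0153, but its FC of 1.22 was below the threshold. The other tested probes had means of −0.10 ± 0.10 and −0.01 ± 0.28 (SD, n = 4, adjusted p = 0.245 and 0.973). The fifth probe was well above background in each channel on 1 array only. The probes of this gene did not agree on a difference, and they are spread over 3735 bases.

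*BMPR2*, the type II receptor that binds BMP ligands together with *BMPR1A*, had 1 probe on a scaffold with no assigned chromosome. Its Cy3 signals were 151, 129, 172 and 148 and its Cy5 signals were 122, 119, 178 and 134. The log2 ratios of −0.31, −0.12, 0.05 and −0.14 gave a mean of −0.13 ± 0.15 (SD, n = 4, adjusted p = 0.205). The ranges overlapped, and array 3 was the exception in sign.

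The *ID* genes are the targets by which BMP activity is often read. With the deposited ratios, *ID2* and *ID3* were higher on 4 of 4 arrays, whereas *ID1* was higher on 1. *ID4*, from the pathway lists, was also higher on 4 of 4 arrays, at 0.31 ± 0.24 (SD, n = 4, adjusted p = 0.0425). Its FC of 1.24 was below the threshold, so it was not called. *ID3* rose most. Its Cy3 signals were 534, 526, 708 and 622 on arrays 1 to 4, and its Cy5 signals were 924, 1195, 1157 and 764. All 4 HMB-treated signals were above all 4 control signals. The log2 ratios of 0.79, 1.18, 0.71 and 0.30 gave a mean of 0.75 ± 0.36 (SD, n = 4, FC 1.68, adjusted p = 0.00613). Array 2 was highest and array 4 lowest.

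The call for *ID3* held with each array left out (0.60 to 0.90). It was lost with the methods' t-test (adjusted p = 0.0692), with the test against an FC of 1.3 (0.126), without the filter on dim probes (0.0578) and with scaling to spike-in RNA, where the log2 ratio was 0.26 (0.150). The direction was the same in all of these.

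*ID2* was measured by 3 probes within 114 bases on chromosome 15. The only called probe (A_69_P060727) had Cy3 signals of 248, 252, 308 and 259 and Cy5 signals of 356, 364, 439 and 281. Its log2 ratios were 0.52, 0.53, 0.51 and 0.11, with a mean of 0.42 ± 0.20 (SD, n = 4, FC 1.34, adjusted p = 0.0109), and with scaling to spike-in RNA the mean was −0.07. Arrays 1 to 3 lay close together, and array 4 was nearer to 0. The call was also lost with the methods' t-test (adjusted p = 0.0684), with the test against an FC of 1.3 (adjusted p = 1), with normexp correction and loess, where the log2 ratio of 0.32 was below an FC of 1.3, and without the filter on dim probes (0.0573).

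The other *ID2* probes had means of 0.34 ± 0.20 in both cases (SD, n = 4), with adjusted p of 0.0226 and 0.0222 and FC values of 1.26 and 1.27. On them, too, array 4 was lowest, at 0.04 and 0.05, and the other arrays lay between 0.38 and 0.49. Without array 4 all 3 probes were called.

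*ID1*, known as the most direct BMP target of the family, had 5 probes within 64 bases on chromosome 22, named by their description. The brightest probe had Cy3 signals of 1739, 1586, 2247 and 1908 and Cy5 signals of 1611, 2111, 1849 and 1505. Its log2 ratios were −0.11, 0.41, −0.28 and −0.34, and their mean was −0.08 ± 0.34 (SD, n = 4, adjusted p = 0.639). Array 2 alone was higher in the HMB-treated channel.

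All 5 *ID1* probes showed this pattern, with 0.33 to 0.41 on array 2 and −0.38 to −0.11 on the other arrays. Their means ran from −0.13 to −0.08, with adjusted p between 0.429 and 0.639. Scaling to spike-in RNA called 17324 of all 24670 tested probes lower. With it all 5 *ID1* probes were called lower (−0.62 to −0.57, adjusted p between 0.00436 and 0.00746). Within an array the probes differed by a mean SD of 0.03, whereas their average differed between arrays with an SD of 0.33. These probes overlap one another by 56 to 59 bases, so they count as 1 measurement, and it differed between arrays. Without array 2 the means ran as low as −0.29, and no probe was called.

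Among *ID1*, *ID2* and *ID3*, the ratio of *ID3* was the highest on each of the 4 arrays. That of *ID2* came next and that of *ID1* was lowest. The log2 ratio of *ID3* exceeded that of *ID1* by 0.86 ± 0.17 and that of *ID2* by 0.38 ± 0.21 (SD, n = 4). For *ID2* over *ID1* the difference was 0.48 ± 0.27. Each had the exact permutation p of 0.125 given above.

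*SMAD6*, which competes with the SMADs that BMP receptors activate, fell in the HMB-treated group. Its 1 probe has ends 59179 bases apart on chromosome 1 of the build (chr1:123063267-123122445), as for a probe that crosses a splice junction. The Cy3 signals were 50.8, 70.1, 55.4 and 53.3, and the Cy5 signals were 43.1, 49.5, 36.8 and 26.6. Each control signal was above each HMB-treated signal, and on array 4 the latter was not well above background.

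The log2 ratios of *SMAD6* were −0.24, −0.50, −0.59 and −1.005, with a mean of −0.58 ± 0.32 (SD, n = 4, FC 1.499, adjusted p = 0.0102). The probe passed the filter through its Cy3 channel alone, and with both channels required on all 4 arrays it was not tested. The value on array 4 is set against a signal not well above background. With normexp correction and loess the mean was −0.15 (adjusted p = 0.0693), and with loess and no background correction it was −0.19 (0.0201), below an FC of 1.3 in both. The call was also lost with the methods' t-test (0.0831), with the test against an FC of 1.3 (0.395) and without the filter on dim probes (0.0719). It held with each array left out (−0.70 to −0.44).

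*SMAD7*, which blocks the receptors of both the BMP and the TGF-β branch, was named by its description and had 2 probes on chromosome 8. Neither was tested. The signals were 10.99 to 32.3 in Cy3 and 15.3 to 31.7 in Cy5, and they were well above background on 1 or 2 of the 4 arrays. The log2 ratios were −0.32, −0.09, 0.03 and 0.06 for one probe and 0.19, −0.39, −0.06 and 0.88 for the other. These values have no common sign.

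The rest of the pathway was taken from lists of 67 genes, of which 62 were on the array and 35 were tested. By the brightest probe of each, calls were made for 2 genes on the higher and 7 on the lower side (25.7%, beside 27.6% of all tested gene names). One of the higher genes, *GREM1*, was above background in Cy5 only. The median log2 ratio of the tested genes was −0.18. With both channels required on all 4 arrays, 29 genes were tested, with 2 calls on the higher and 5 on the lower side. *GREM1* was not tested there, so the 2 higher genes are not the same pair. Of all 22653 probes tested that way, 5870 were called, 2546 higher and 3324 lower. With scaling to spike-in RNA the calls were 1 and 24, beside 1247 and 17324 of all 24670 tested probes. With the deposited ratios, the 26 genes not called lay between −0.38 and 0.42.

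Among the receptors and coreceptors, 2 of 5 were called, both lower. *ACVR1*, the type I receptor ALK2, had a log2 ratio of −0.53 ± 0.18 (SD, n = 4, adjusted p = 0.00372), with −0.60, −0.75, −0.32 and −0.45 on the arrays. *NEO1*, which encodes neogenin, a receptor of repulsive guidance molecules that act as BMP coreceptors, had −0.52 ± 0.09 (SD, n = 4, adjusted p = 0.00131), and all 3 of its probes were called. The test against the FC threshold ended the calls of *ACVR1* (adjusted p = 0.355) and *NEO1* (adjusted p = 0.203). The *NEO1* call was also lost with normexp correction and loess, where its log2 ratio of −0.35 (adjusted p = 0.0119) was below the FC threshold.

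Of 9 tested extracellular antagonists and modulators, 1 was called. *GREM1*, which encodes gremlin, a secreted protein that binds BMP2 and BMP4, had log2 ratios of 1.56, 1.65, 1.03 and 0.45. Its Cy3 signal was not well above background on any array, whereas its Cy5 signal was on all 4, so it passed the filter through Cy5 alone and only a bound can be given. Taken on the mean of the 4 arrays, this bound was 1.94-fold higher in the HMB-treated group (0.96 on the log2 scale). It is not a floor for each array or each processing, as array 4 was at 0.45. The adjusted p of 0.00445 belongs to the deposited ratio and does not test this bound, and with normexp correction and loess the log2 ratio was 0.32 (adjusted p = 0.0631). The call was also lost with the methods' t-test, with loess and no background correction, and without the filter on dim probes. The bound sets the mean Cy5 signal against the lowest Cy3 signal among probes well above background, or its own Cy3 signal where higher. Before this, the average intensities over both channels were brought to common quantiles between arrays, and the ratios were left unchanged. The bound is open to dye bias because the dyes were not swapped.

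Among the SMADs and their intracellular partners, 2 of 10 were called, both lower. *ZFYVE16*, which encodes endofin, an endosomal anchor of SMADs, had a log2 ratio of −0.58 ± 0.30 (SD, n = 4, adjusted p = 0.00905). It was dim, with Cy5 well above background on 3 arrays, and with normexp correction and loess it was at −0.14 (adjusted p = 0.109). *TOB1*, an antiproliferative protein that binds SMADs, had −0.41 ± 0.18 (SD, n = 4, adjusted p = 0.00982), and 4 of its 5 probes were called; without array 1 it was at −0.35 and not called. The receptor-activated SMADs of the pathway and *SMAD4* were not called by their brightest probes, whose log2 ratios ran from −0.19 to −0.12.

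Of 7 tested target genes outside the list of 10, 1 was called higher and 2 lower. *HEY2*, a transcriptional repressor also driven by Notch, had 0.58 ± 0.13 (SD, n = 4, adjusted p = 0.00132), and all 5 of its probes were called, but with scaling to spike-in RNA it was at 0.09 (adjusted p = 0.388). *SNAI2*, the repressor Slug, had −0.85 ± 0.29 (SD, n = 4, adjusted p = 0.00191), and the homeobox gene *DLX3* had −0.53 ± 0.20 (SD, n = 4, adjusted p = 0.00437). *DLX3* was dim, with Cy5 well above background on 3 arrays, and with normexp correction and loess *DLX3* was at −0.09 (adjusted p = 0.224) and *SNAI2* at −0.32 (adjusted p = 0.0223, below an FC of 1.3). The test against an FC of 1.3 ended the calls of *HEY2* and *DLX3*, and loess without background correction ended that of *DLX3*. Of the E proteins that ID proteins bind, *TCF12* was called lower at −0.44 ± 0.10 (SD, n = 4, adjusted p = 0.00302), while *TCF3* and *TCF4* were not called (−0.25 and 0.03). The *TCF12* call was lost with the test against an FC of 1.3, with loess after normexp or no background correction, and with median centring. The only tested ligand of the lists, *GDF2*, was at −0.20 ± 0.31 (SD, n = 4) and was not called.

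**Figure D3:**
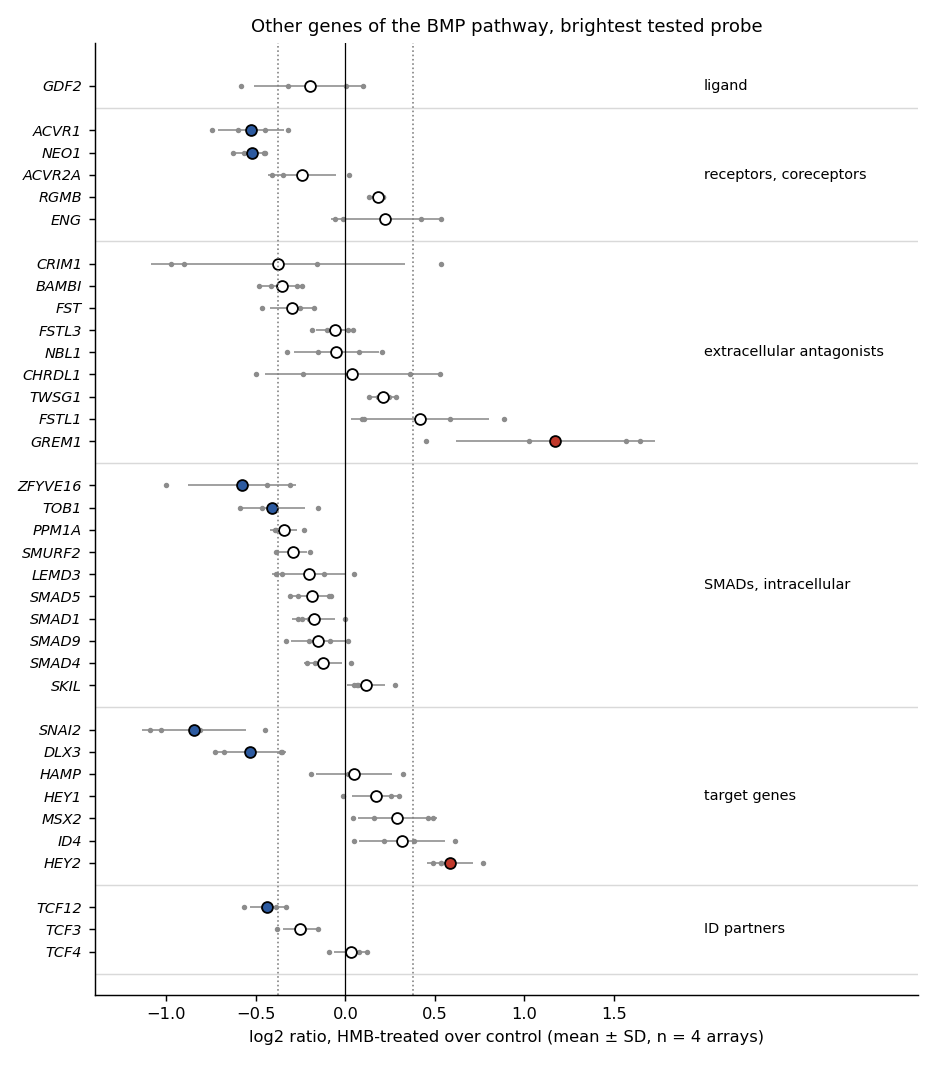
Log2 ratio of HMB-treated over control cells (x axis) for the 35 tested genes of the other pathway lists (y axis, grouped by role), with the mean and SD of 4 arrays, small points for the arrays, red and blue circles for genes called higher and lower, open circles for genes not called, and dotted lines at an FC of 1.3. The called genes are *GREM1* and *HEY2* on the higher side (*HEY2* is not called with scaling to spike-in RNA) and 7 genes between −0.85 and −0.41 on the lower side.

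The normalization set the direction of some genes. Scaling each array by the intercept of its spike-in RNA, as given in the scanner files (0.37 to 0.57 on the log2 scale), moved the median of all tested probes from −0.07 to −0.56. On that scale all *BMP4* and *ID2* probes had means below 0, *ID3* stayed above 0, the receptor and *ID1* probes were called lower, and *BMP2* was at −1.18 and −1.26. Relative to the median of all tested probes, the order of the genes was as before, because the scaling shifts every probe of an array alike.

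**Figure D4:**
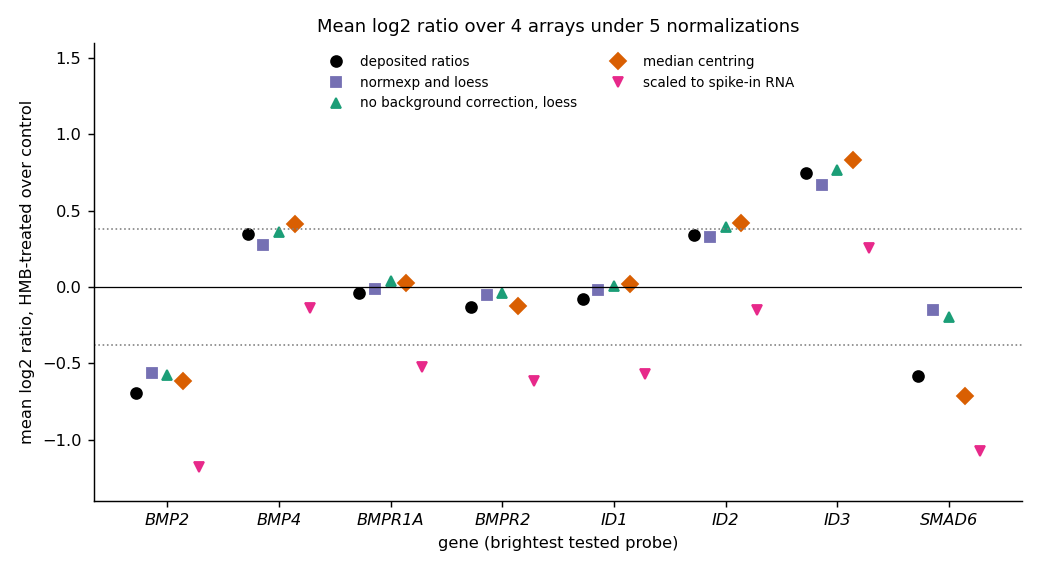
Mean log2 ratio over 4 arrays (y axis) of the brightest tested probe of each gene (x axis) with the deposited ratios and with 4 other normalizations, and dotted lines at an FC of 1.3. *BMP2* lies below −0.5 and *ID3* above 0 in all 5, *BMP4* and *ID2* lie below 0 with spike-in scaling only, and *SMAD6* is at −0.15 and −0.19 with the 2 loess settings.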

How the data were processed

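The deposited scanner files of 4 Agilent horse arrays (2 colours, probes of 60 bases) were read. Per the file headers, Feature Extraction 10.10.1.1 had been used, with annotation on EquCab1. The authors' intensity values are spot signals in each channel, raw and after background subtraction with linear and lowess normalization. The deposited log10 ratios (Cy5 over Cy3) were multiplied by 3.32 to give log2 ratios. Signals at background had been replaced by surrogates. The authors' series-wide file of normalized values held the same ratios (largest difference 0). Spots of 1 probe were averaged without control and marked spots, and a ratio on at least 3 arrays was required.

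Log2 ratios were tested against 0 with limma 3.58.1 in R 4.3.3, with the files read by data.table (version 1.17.8), by an intercept model with empirical Bayes moderation, and the script was tested on simulated data. A gene with several probes was given by its brightest tested probe. All probes of the 10 genes are given, and of the pathway lists each called gene is named. The genes and lists were chosen with earlier results of these data known. Alternatives changed the test, background, normalization, filter and arrays. RefSeq protein and promoter sequences were not used here. The files name no exon for a probe.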

Additional observations from a re-analysis of the deposited data

Results flagged for a closer look

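Of 61 values examined (the tested probes of the 10 genes and the brightest probes of the other pathway genes), 3 had 1 array far from the others by Dixon's test. Chance gives about 1 in 20. For *ID2* (A_69_P060727) array 4 was at 0.11, whereas the other arrays lay between 0.51 and 0.53. For *HEY2* array 3 was at 0.77 and the others were at 0.49 to 0.54. For *SKIL*, a SMAD corepressor that was not called, array 2 was at 0.28 and the others were at 0.05 to 0.07.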

How the results depend on the processing

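The count of called probes of the 10 genes (10 in the report) was 6 with the methods' t-test, 2 with limma's treat, 3 with normexp and loess and 16 with median centring. It ran from 8 to 14 with 1 array left out. Over all probes 7046 were called, against 2822 with treat, 3538 with normexp, 4439 with loess and no background correction and 18571 with spike-in scaling, and 6663 to 7366 with 1 array left out. Of the called probes, the higher ones made up 42.5% in the report, 54.6% with treat, 55.0% with normexp, 60.1% without background correction and 6.71% with spike-in scaling. The pathway genes gave 9 calls in the report, 2 with treat, 2 with normexp, 5 without background correction, 25 with spike-in scaling (1 higher, 24 lower), and 10 to 11 with 1 array left out.

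Scaling to spike-in RNA turned all *BMP4* probes (−0.0269, −0.0334, −0.0744, −0.0928, −0.102, −0.112, −0.125, −0.139 and −0.143) and all *ID2* probes (−0.0678, −0.145 and −0.150) below 0. Among probes near 0 that were not called, *BMPR1A* A_69_P125941 turned to 0.0152 with array weights, 0.00631 without background correction and 0.0235 with GC correction, *BMPR1A* A_69_P111761 to 0.0390 without background correction and 0.0283 with median centring, and *ID1* A_69_P024701 to 0.00565 and 0.0212 with the same settings. With 1 array left out these ran from −0.105 to 0.0943, −0.104 to 0.0530 and −0.245 to 0.00682. Without array 1 or array 2, 2 *BMP4* probes lost their call (A_69_P002083 and A_69_P005399), and without array 4, 4 probes of *BMP4* and *ID2* gained one. The causes were not tested. Averaging a gene's probes gave 4 called genes (*BMP2*, *BMP4*, *ID3* and *SMAD6*) of 8 tested, beside 28% of all 8811 gene names. *ID1* was among the 8 tested and was not called. The averaging gave 10 called pathway genes and was not applied to counts of probes. Each ratio already sets the HMB-treated cRNA against the control cRNA of the same array, so the test of the ratios is paired within arrays, and no further replicate block could be fitted to 1 group of arrays.

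Signals near background limit *SMAD6*, *SMAD7*, *BMP6*, *GREM1*, *DLX3* and *ZFYVE16*. The dye and the slide cannot be separated from the treatment with these arrays.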

Other observations

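In 4 pathway genes the brightest probe was not called while another tested probe was. They were chosen after their values were seen. For *SMAD4*, the partner of the receptor-activated SMADs, 2 of 6 probes were called higher (0.38 and 0.47), and the brightest probe, elsewhere on the gene, was at −0.12 (adjusted p = 0.175). The called probes were dim, with a mean Cy3 signal of 42.9 against 350 for the brightest. For the type II receptor *ACVR2A* the called probe was at −0.44 and the brightest at −0.24. For the pseudoreceptor *BAMBI* the values were −0.42 and −0.35, and for the homeobox gene *MSX2* they were 0.41 and 0.29.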
